A study of Sus scrofa with 9 samples.

Results

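Interferon-stimulated genes that carry out or amplify the antiviral programme were followed in hearts of miniature pigs (Sus scrofa). The members were 39 genes named by symbol, and a gene was taken when the gene name in the deposited count table matched one of them. The match found 36 genes of 30942 in the table. IFIT5, SAMD9 and SP100 had no entry under those symbols, and XAF1 was listed at 0 counts in all 9 libraries. The other 35 members passed the low-count filter, among 14846 genes tested. RNA of heart tissue was sequenced in 3 groups of 3 libraries: doxorubicin plus formononetin, doxorubicin, and vehicle. All animals were wild type, and both drug groups received doxorubicin, an anthracycline chemotherapy drug known for heart toxicity. Formononetin is an isoflavone, a plant compound with weak estrogen-like activity. The series concerns the estrogen-related receptor alpha pathway, mitochondrial metabolism and anthracycline toxicity to the heart. No dose, duration, heart region, age or sex is given in the sources used here.

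Type I interferons bind a receptor made of IFNAR1 and IFNAR2, whose kinases JAK1 and TYK2 phosphorylate STAT proteins, STAT2 among them. With IRF9 these form the complex ISGF3, which binds interferon-stimulated response elements in promoters and switches on a large set of genes in most cell types, heart muscle cells among them. Type II interferon acts through the receptor chains IFNGR1 and IFNGR2, and induces IRF1 and guanylate-binding proteins strongly. The products degrade viral RNA, block its translation, trap virions, conjugate the ubiquitin-like protein ISG15 to other proteins, and damp the signal again.

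Library totals ran from 16291952 to 17549359 counts. Levels are TMM-scaled CPM, counts per 1e+06 counts of the library, where TMM is a factor that corrects for library composition. A gene was called changed, or said to rise or fall, at an edgeR adjusted p under 0.05 over all genes tested. Below, a log2 fold change "with doxorubicin" sets doxorubicin against vehicle, and one "with added formononetin" sets doxorubicin plus formononetin against doxorubicin, each with ± its standard error (SE). Genes with at least 1 count numbered 14766 in doxorubicin plus formononetin replicate 2, and 18107 to 19304 in the other libraries. Of 8 markers of heart muscle cells, 7 were at 561 CPM or more in every library, and NPPA, which encodes the atrial natriuretic peptide, ran from 0.973 to 22.2 CPM with doxorubicin plus formononetin, 2.46 to 36.1 CPM with doxorubicin and 40.2 to 214 CPM with vehicle. MYH7, a ventricular myosin heavy chain, was at 27828 ± 909 CPM with doxorubicin plus formononetin, 25875 ± 1632 CPM with doxorubicin and 34623 ± 2635 CPM with vehicle (SD, n = 3 each). The labels do not say whether replicates are different animals, and p-values therefore reflect only how far these libraries spread, which may be technical.

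Doxorubicin hearts held more RNA of nearly all of these genes than vehicle hearts. The summed level of the 36 members was 967 to 1091 CPM with doxorubicin plus formononetin, 1656 to 2147 CPM with doxorubicin and 623 to 791 CPM with vehicle, and the 3 ranges did not overlap. OASL and ISG20 passed the low-count filter through the doxorubicin libraries alone, and are described by their counts below. Of the other 33 tested members, 30 rose with doxorubicin against vehicle and 0 fell, where 16.3% of all genes tested were called higher and 17.0% lower. The 3 members that did not pass were SP110, TRIM21 and IFI35. The median log2 fold change of the 33 was 1.37, with a range of 0.069 to 2.80, against a median of -0.0019 for all genes tested, and 20 were called with at least a 2-fold difference. All 3 doxorubicin libraries lay above all 3 vehicle libraries in 31 of the 33, an arrangement seen in 27.6% of all genes tested. With OASL and ISG20, whose calls the low-count filter favours, the count was 32 of 35.

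Hearts given formononetin with doxorubicin held less of most of these RNAs than hearts given doxorubicin alone. Of the same 33 members, 24 fell and 0 rose, where 13.5% of all genes tested were called lower and 14.7% higher. The members that did not pass were IRF1, IRF9, GBP2, TRIM25, SP110, TRIM21, IFI6, IFI35 and BST2. The median log2 fold change of the 33 was -0.83, with a range of -2.10 to 0.11, against -0.010 for all genes tested, and 13 were called with at least a 2-fold difference. All 3 libraries with both drugs lay below all 3 doxorubicin libraries in 27 of the 33, an arrangement seen in 22.2% of all genes tested. With OASL and ISG20, whose calls the low-count filter favours, the count was 26 of 35. The comparisons share the doxorubicin libraries, so a high doxorubicin value moves both, and the values of each stand side by side below.

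**Figure D1:**
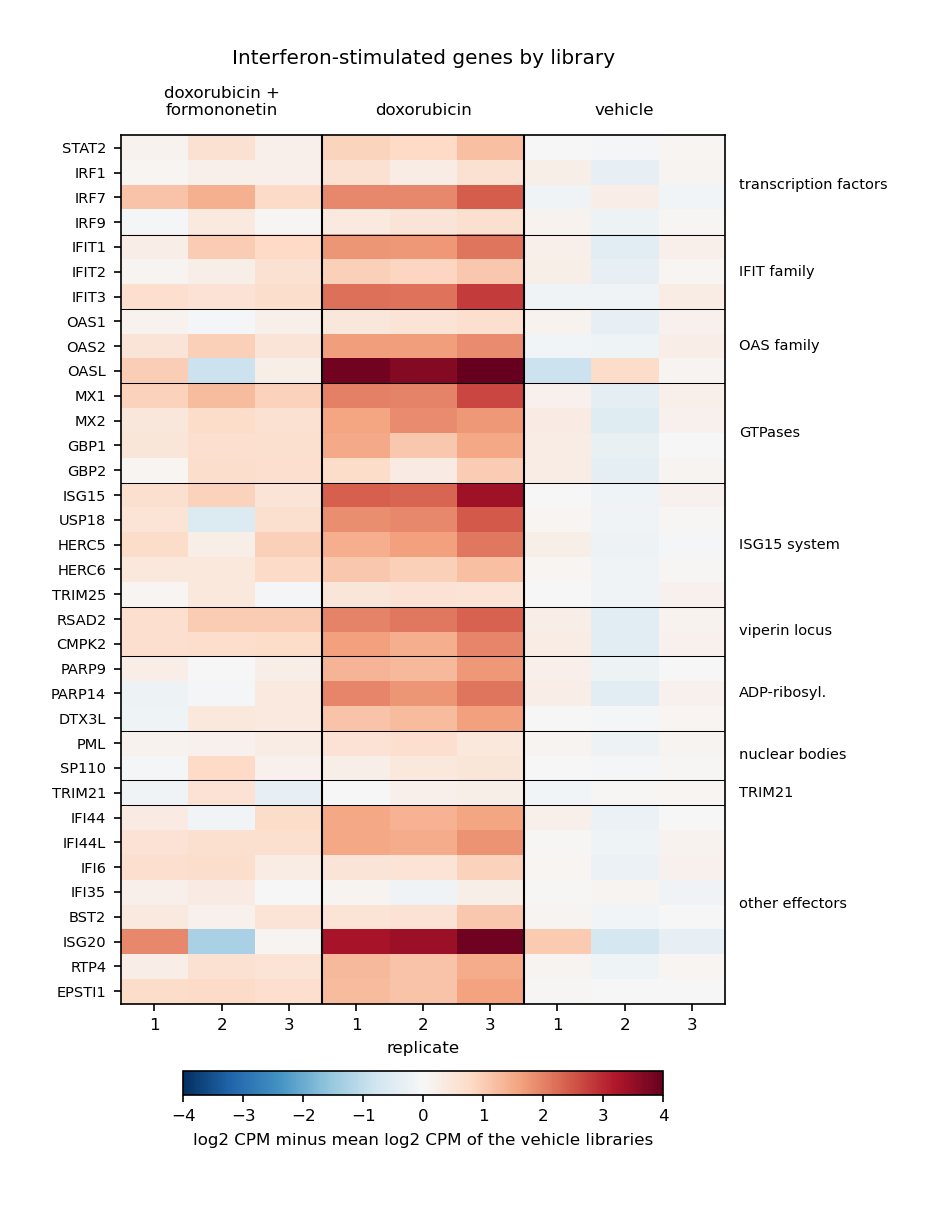
Level of each of the 35 tested members in each library, as log2 CPM minus the mean log2 CPM of the vehicle libraries, with the colour scale ending at -4 and 4. Columns are replicates 1 to 3 of doxorubicin plus formononetin, doxorubicin and vehicle, and rows are grouped by the role of the gene product. The doxorubicin block is darkest red in most rows, with replicate 3 the highest library in 28 of 35 members, while TRIM21, IFI35 and SP110 stay pale. OASL and ISG20 are among the 28, and passed the low-count filter through the doxorubicin libraries alone.

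Markers of other cells moved with some of these groups. In bulk tissue, fewer cells of a type and less RNA per cell cannot be told apart. Of 11 tested macrophage and monocyte markers, AIF1, FCGR3A and LYZ were called higher with doxorubicin against vehicle, and the pan-macrophage markers CD68 and CSF1R were not. With doxorubicin plus formononetin against doxorubicin, CD163, AIF1, FCGR3A and LYZ were called lower and 0 of the 11 higher. The summed level of the 12 listed markers was 256 to 292 CPM with doxorubicin plus formononetin, 338 to 358 CPM with doxorubicin and 179 to 314 CPM with vehicle. Of 11 tested genes listed as lymphocyte and natural killer markers, PTPRC and JCHAIN were called higher with doxorubicin, and GNLY was called higher with added formononetin. PTPRC is not restricted to those cells. The summed level of the 16 listed markers was 72.8 to 89.5 CPM with both drugs, 74.2 to 98.3 CPM with doxorubicin and 51.7 to 82.7 CPM with vehicle. Neutrophil markers summed to 0 to 1.77 CPM with both drugs, 0.937 to 3.67 CPM with doxorubicin and 0.948 to 1.68 CPM with vehicle. Of 4 tested plasmacytoid dendritic cell markers, the nucleic acid receptors TLR7 and TLR9 were called higher with doxorubicin and the other 2 were not called. The summed level of the 5 matched markers of that list overlapped between groups. It was 39.4 to 62.3 CPM with both drugs, 37.0 to 46.2 CPM with doxorubicin and 38.2 to 46.8 CPM with vehicle. Of 8 cardiomyocyte markers 7 were called lower with doxorubicin and 4 higher with added formononetin, and their summed level was 51824 to 54124 CPM with both drugs, 41111 to 46993 CPM with doxorubicin and 60133 to 67575 CPM with vehicle. With doxorubicin, 3 of 7 endothelial, 2 of 6 fibroblast and 3 of 5 pericyte and smooth muscle markers were called lower. With added formononetin, 3 of 7 endothelial, 2 of 6 fibroblast and 3 of 5 pericyte and smooth muscle markers were called higher. Over all genes tested, 16.3% were called higher and 17.0% lower with doxorubicin, and 14.7% higher and 13.5% lower with added formononetin. The part of these shifts in the interferon result was not tested.

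The transcription factors of the response rose with doxorubicin in 4 of 4 cases, and 2 of 4 fell with added formononetin. IRF7, which drives type I interferon genes and amplifies the response, showed the largest difference of the 4. Its level was 8.88, 10.8 and 6.75 CPM with doxorubicin plus formononetin, 15.1, 15.4 and 21.6 CPM with doxorubicin and 3.55, 4.75 and 3.63 CPM with vehicle. The 3 groups did not overlap, and the libraries with both drugs lay between the others. IRF7 had log2 fold changes of 2.13 ± 0.23 with doxorubicin (edgeR adjusted p = 1.33e-04) and -0.97 ± 0.22 with added formononetin (adjusted p = 0.00828). STAT2, the ISGF3 subunit that carries the activation domain, measured 38.3, 52.5 and 39.6 CPM with doxorubicin plus formononetin, 63.6, 59.9 and 79.4 CPM with doxorubicin and 34.5, 32.4 and 36.4 CPM with vehicle. Here too the 3 groups were apart, with doxorubicin plus formononetin replicate 2 well above its 2 companions. STAT2 had log2 fold changes of 0.97 ± 0.15 with doxorubicin (edgeR adjusted p = 6.77e-04) and -0.64 ± 0.15 with added formononetin (adjusted p = 0.00847). The ISGF3 subunit IRF9 and the interferon-gamma-responsive factor IRF1 rose less. IRF9 averaged 27.5 ± 4.78 CPM with doxorubicin plus formononetin, 35.95 ± 3.07 CPM with doxorubicin and 25.2 ± 3.01 CPM with vehicle (SD, n = 3 each), with log2 fold changes of 0.51 ± 0.15 with doxorubicin (edgeR adjusted p = 0.0194) and -0.38 ± 0.15 with added formononetin (adjusted p = 0.0704). IRF1 averaged 18.7 ± 0.908 CPM with doxorubicin plus formononetin, 23.7 ± 2.73 CPM with doxorubicin and 16.8 ± 3.23 CPM with vehicle (SD, n = 3 each), with log2 fold changes of 0.49 ± 0.16 with doxorubicin (edgeR adjusted p = 0.0338) and -0.34 ± 0.16 with added formononetin (adjusted p = 0.13). Both calls against vehicle were lost when certain single libraries were left out. The edgeR adjusted p of IRF9 was 0.0534 without doxorubicin replicate 2, 0.0661 without doxorubicin replicate 3 and 0.0829 without vehicle replicate 2. For IRF1 the edgeR adjusted p was 0.108 without doxorubicin replicate 1, 0.0977 without doxorubicin replicate 3, 0.137 without vehicle replicate 2 and 0.0671 without vehicle replicate 3. With formononetin against doxorubicin, the only single library whose omission let IRF9 pass was doxorubicin plus formononetin replicate 2, at an edgeR adjusted p of 0.0147.

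The IFIT proteins bind viral RNA with unmethylated or uncapped ends and block its translation. All 3 matched members rose with doxorubicin and all 3 fell with added formononetin. IFIT3, which stabilises IFIT1 on RNA in human cells, changed most. It measured 20.01, 18.8 and 20.8 CPM with doxorubicin plus formononetin, 59.3, 57.5 and 88.9 CPM with doxorubicin and 11.4, 11.4 and 15.6 CPM with vehicle. The libraries with both drugs were tightly grouped above vehicle, and the highest doxorubicin library was replicate 3. IFIT3 was 5.35-fold higher with doxorubicin than with vehicle, a log2 fold change of 2.42 ± 0.19 (edgeR adjusted p = 2.39e-05), and its log2 fold change with added formononetin was -1.78 ± 0.18 (edgeR adjusted p = 1.43e-04). IFIT1, the family's sensor of incomplete caps, was the most abundant of the 3, at 35.7, 59.7 and 51.7 CPM with doxorubicin plus formononetin, 101, 98.7 and 130.3 CPM with doxorubicin and 34.3, 21.99 and 34.4 CPM with vehicle. Its 3 groups were apart, though the lowest library with both drugs stood just above the vehicle libraries. IFIT1 had log2 fold changes of 1.86 ± 0.22 with doxorubicin (edgeR adjusted p = 1.72e-04) and -1.17 ± 0.21 with added formononetin (adjusted p = 0.00259). IFIT2, known in human cells for promoting apoptosis, gave 25.003, 27.1 and 35.1 CPM with doxorubicin plus formononetin, 44.5, 41.7 and 49.1 CPM with doxorubicin and 27.3, 18.4 and 24.4 CPM with vehicle. Doxorubicin libraries were above all others, and the libraries with both drugs overlapped those with vehicle. IFIT2 had log2 fold changes of 0.95 ± 0.17 with doxorubicin (edgeR adjusted p = 0.00155) and -0.63 ± 0.17 with added formononetin (adjusted p = 0.0156). The second call was lost at an edgeR adjusted p of 0.0609 without doxorubicin plus formononetin replicate 1 and 0.0565 without doxorubicin replicate 3. A separate locus, LOC100151816, carries IFIT5 as a synonym in RefSeq and lies next to these genes on chromosome 14. Outside the count of members, it had log2 fold changes of 0.95 ± 0.17 with doxorubicin (edgeR adjusted p = 0.00193) and -0.49 ± 0.17 with added formononetin (adjusted p = 0.0527). Members of this family resemble each other, and the sources used here do not state how reads shared between copies were counted.

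The oligoadenylate synthetases make short adenosine chains on double-stranded RNA, a messenger of antiviral defence. OAS2 and OAS1 rose with doxorubicin and fell with added formononetin. OAS2 measured 61.1, 82.5 and 60.6 CPM with doxorubicin plus formononetin, 134, 134 and 156 CPM with doxorubicin and 39.6, 37.8 and 50.4 CPM with vehicle. The 3 groups did not overlap, and the doxorubicin libraries stood furthest from the rest. OAS2 had log2 fold changes of 1.73 ± 0.15 with doxorubicin (edgeR adjusted p = 4.82e-05) and -1.05 ± 0.15 with added formononetin (adjusted p = 7.75e-04). OAS1 changed less, with 42.6, 36.8 and 44.4 CPM with doxorubicin plus formononetin, 53.1, 56.8 and 62.1 CPM with doxorubicin and 42.7, 30.997 and 43.5 CPM with vehicle. Its libraries with both drugs overlapped those with vehicle, below all 3 doxorubicin libraries. OAS1 had log2 fold changes of 0.55 ± 0.14 with doxorubicin (edgeR adjusted p = 0.0114) and -0.47 ± 0.14 with added formononetin (adjusted p = 0.0277). The fall was not called when certain single libraries were left out, at an edgeR adjusted p of 0.0579 without doxorubicin plus formononetin replicate 1, 0.07 without doxorubicin plus formononetin replicate 2, 0.0684 without doxorubicin replicate 2 and 0.0899 without doxorubicin replicate 3. OASL, a family member that in humans lacks the enzyme activity and boosts the RNA sensor RIG-I, was close to absent outside doxorubicin hearts. It had 0.304, 0 and 0.131 CPM with doxorubicin plus formononetin, 2.98, 2.61 and 5.78 CPM with doxorubicin and 0, 0.24 and 0.112 CPM with vehicle. Summed counts were 7 with both drugs, 192 with doxorubicin and 6 with vehicle, so the ratio rests on few counts outside the doxorubicin group. The ratio of depth-scaled counts was 32.0 for doxorubicin over vehicle (95% exact interval 14.4 to 88.2) and 26.3 for doxorubicin over both drugs (12.5 to 66.2). OASL passed the low-count filter only where it was high, so no p-value is given and its calls carry no weight. Nor do the intervals stand in for a test. The intervals above come from counts summed over the 3 libraries of a group and leave out the spread between libraries. That spread was wide, with 54, 44 and 94 OASL counts in the doxorubicin libraries. These intervals and the floors used below reflect counting error alone, and no molecular identifiers were counted.

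GTPases of the MX and GBP families rose with doxorubicin in 4 of 4 cases, and 3 of 4 fell with added formononetin. MX proteins block the entry or transcription of viral genomes, and guanylate-binding proteins coat and disrupt the compartments of intracellular microbes. MX1, the influenza restriction factor, measured 38.2, 49.2 and 38.2 CPM with doxorubicin plus formononetin, 81.2, 80.6 and 129 CPM with doxorubicin and 22.8, 15.4 and 23.4 CPM with vehicle. The 3 groups were apart, and doxorubicin replicate 3 was far above its 2 companions. MX1 was 4.72-fold higher with doxorubicin than with vehicle, a log2 fold change of 2.24 ± 0.22 (edgeR adjusted p = 7.53e-05), and its log2 fold change with added formononetin was -1.21 ± 0.21 (edgeR adjusted p = 0.00208). MX2, which in human cells restricts lentiviruses at the nuclear pore, had 10.2, 12.3 and 11.3 CPM with doxorubicin plus formononetin, 22.5, 27.7 and 24.6 CPM with doxorubicin and 9.199, 5.29 and 8.25 CPM with vehicle. Its groups were also apart. MX2 had log2 fold changes of 1.72 ± 0.20 with doxorubicin (edgeR adjusted p = 1.72e-04) and -1.14 ± 0.19 with added formononetin (adjusted p = 0.00192). GBP1 measured 39.2, 44.7 and 43.7 CPM with doxorubicin plus formononetin, 80.5, 59.6 and 83.6 CPM with doxorubicin and 34.5, 23.01 and 28.5 CPM with vehicle. Doxorubicin libraries were above the rest, and those with both drugs were above vehicle. GBP1 had log2 fold changes of 1.38 ± 0.17 with doxorubicin (edgeR adjusted p = 2.03e-04) and -0.81 ± 0.16 with added formononetin (adjusted p = 0.00432). GBP2 averaged 18.5 ± 4.33 CPM with doxorubicin plus formononetin, 21.3 ± 4.78 CPM with doxorubicin and 13.2 ± 3.09 CPM with vehicle (SD, n = 3 each), and its libraries with both drugs overlapped both other groups. GBP2 had log2 fold changes of 0.70 ± 0.23 with doxorubicin (edgeR adjusted p = 0.0398) and -0.21 ± 0.23 with added formononetin (adjusted p = 0.538). The call against vehicle was lost at an edgeR adjusted p of 0.0929 without doxorubicin replicate 1, 0.15 without doxorubicin replicate 3, 0.148 without vehicle replicate 2 and 0.0859 without vehicle replicate 3.

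**Figure D2:**
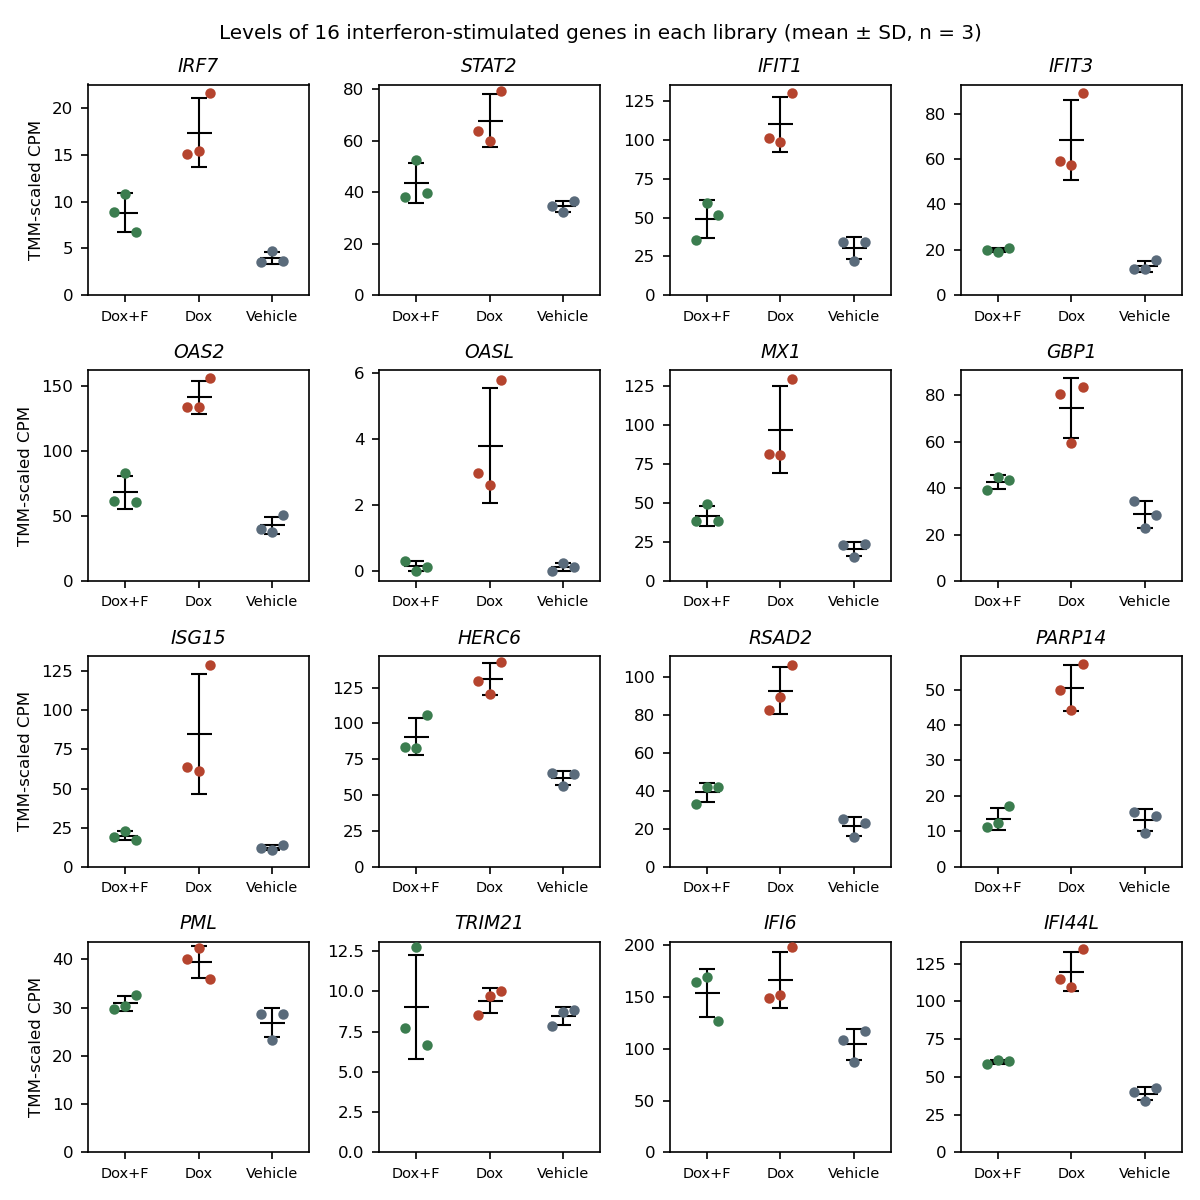
TMM-scaled CPM of 16 members in each library, with points for libraries and bars for mean ± SD of 3 libraries, for doxorubicin plus formononetin (Dox+F), doxorubicin (Dox) and vehicle. Each panel has its own vertical axis that includes 0. IRF7, IFIT3, MX1 and RSAD2 show 3 separate groups with the both-drug libraries between the others, PARP14 shows both-drug and vehicle libraries overlapping, and TRIM21 shows all groups overlapping.

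ISG15 is a ubiquitin-like protein that is conjugated to newly made proteins and also secreted. ISG15 and its enzymes rose with doxorubicin in 5 of 5 members, and 4 of 5 fell with added formononetin. ISG15 itself measured 18.98, 22.99 and 17.2 CPM with doxorubicin plus formononetin, 64.1, 61.4 and 129 CPM with doxorubicin and 12.1, 10.8 and 13.6 CPM with vehicle. The 3 groups did not overlap, and doxorubicin replicate 3 was far above its 2 companions. ISG15 was 6.96-fold higher with doxorubicin than with vehicle, a log2 fold change of 2.80 ± 0.27 (edgeR adjusted p = 7.19e-05), and 4.29-fold lower with both drugs than with doxorubicin, a log2 fold change of -2.10 ± 0.26 (edgeR adjusted p = 3.43e-04). USP18, the protease that removes ISG15 and blocks the type I receptor, had 13.02, 5.96 and 13.8 CPM with doxorubicin plus formononetin, 32.1, 33.8 and 48.5 CPM with doxorubicin and 9.38, 8.05 and 9.15 CPM with vehicle. One library with both drugs, replicate 2, was below all vehicle libraries, and the other 2 were above them. USP18 had log2 fold changes of 2.10 ± 0.28 with doxorubicin (edgeR adjusted p = 3.10e-04) and -1.81 ± 0.27 with added formononetin (adjusted p = 0.00102). HERC5, the main ISG15 ligase of human cells, measured 14.9, 10.4 and 17.2 CPM with doxorubicin plus formononetin, 24.2, 27.6 and 38.6 CPM with doxorubicin and 10.4, 7.69 and 8.59 CPM with vehicle. Here the libraries with both drugs reached down to the highest vehicle library without passing it. HERC5 had log2 fold changes of 1.76 ± 0.23 with doxorubicin (edgeR adjusted p = 2.72e-04) and -1.09 ± 0.22 with added formononetin (adjusted p = 0.00445). HERC6, the ligase that serves in mouse, was more abundant, at 83.8, 82.9 and 106 CPM with doxorubicin plus formononetin, 129.5, 120.4 and 143 CPM with doxorubicin and 65.3, 56.3 and 64.5 CPM with vehicle. Its 3 groups were apart. HERC6 had log2 fold changes of 1.08 ± 0.13 with doxorubicin (edgeR adjusted p = 1.72e-04) and -0.53 ± 0.12 with added formononetin (adjusted p = 0.00952). TRIM25, a ligase that ubiquitinates the RNA sensor RIG-I, averaged 22.7 ± 3.77 CPM with doxorubicin plus formononetin, 29.5 ± 0.906 CPM with doxorubicin and 20.3 ± 2.29 CPM with vehicle (SD, n = 3 each). TRIM25 had log2 fold changes of 0.54 ± 0.14 with doxorubicin (edgeR adjusted p = 0.0125) and -0.38 ± 0.14 with added formononetin (adjusted p = 0.0651). Its rise was lost at an edgeR adjusted p of 0.0573 without vehicle replicate 2, and its difference with added formononetin passed, at 0.0124, without doxorubicin plus formononetin replicate 2.

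The viperin locus holds RSAD2, an enzyme that turns cytidine triphosphate into a chain terminator of viral polymerases, and CMPK2, a mitochondrial nucleotide kinase. Both rose with doxorubicin and fell with added formononetin. RSAD2 measured 33.2, 42.03 and 41.95 CPM with doxorubicin plus formononetin, 82.4, 89.2 and 106 CPM with doxorubicin and 25.1, 15.5 and 23.1 CPM with vehicle. The groups were apart, with the libraries of both drugs nearer to vehicle than to doxorubicin. RSAD2 was 4.36-fold higher with doxorubicin than with vehicle, a log2 fold change of 2.12 ± 0.18 (edgeR adjusted p = 3.75e-05), and its log2 fold change with added formononetin was -1.24 ± 0.17 (edgeR adjusted p = 6.69e-04). CMPK2 had 25.7, 26.7 and 27.3 CPM with doxorubicin plus formononetin, 50.5, 44.7 and 63.6 CPM with doxorubicin and 19.8, 11.8 and 18.2 CPM with vehicle. Its libraries with both drugs lay close together between the other groups. CMPK2 had log2 fold changes of 1.67 ± 0.19 with doxorubicin (edgeR adjusted p = 1.44e-04) and -0.99 ± 0.18 with added formononetin (adjusted p = 0.00278).

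PARP9, PARP14 and DTX3L act on ADP-ribose: PARP14 attaches single units to proteins, and PARP9 works as a dimer with the ubiquitin ligase DTX3L. All 3 rose with doxorubicin and fell with added formononetin, and in all 3 the libraries with both drugs overlapped those with vehicle. PARP14 measured 11.3, 12.2 and 17.04 CPM with doxorubicin plus formononetin, 49.8, 44.2 and 57.1 CPM with doxorubicin and 15.5, 9.49 and 14.4 CPM with vehicle. Doxorubicin libraries were all far above the other 6. PARP14 was 3.83-fold higher with doxorubicin than with vehicle, a log2 fold change of 1.94 ± 0.21 (edgeR adjusted p = 1.11e-04), and 3.73-fold lower with both drugs than with doxorubicin, a log2 fold change of -1.90 ± 0.21 (edgeR adjusted p = 1.74e-04). PARP9 had 11.1, 9.12 and 10.8 CPM with doxorubicin plus formononetin, 23.5, 22.7 and 30.6 CPM with doxorubicin and 10.6, 7.81 and 9.09 CPM with vehicle. DTX3L had 9.31, 14.3 and 13.7 CPM with doxorubicin plus formononetin, 23.4, 25.4 and 32.9 CPM with doxorubicin and 10.3, 10.03 and 11.2 CPM with vehicle. In both genes the lowest doxorubicin library was above every library of the other groups. PARP9 had log2 fold changes of 1.48 ± 0.17 with doxorubicin (edgeR adjusted p = 1.77e-04) and -1.31 ± 0.17 with added formononetin (adjusted p = 4.88e-04). DTX3L had log2 fold changes of 1.37 ± 0.19 with doxorubicin (edgeR adjusted p = 4.04e-04) and -1.13 ± 0.19 with added formononetin (adjusted p = 0.00163). PARP9 and DTX3L overlap by 395 bases on opposite strands, and the strand setting of the counting was not given in the sources used here, so reads in the overlap cannot be assigned to either. Against vehicle, the libraries with both drugs differed by 0.036 ± 0.21 in PARP14, 0.17 ± 0.18 in PARP9 and 0.24 ± 0.19 in DTX3L, and 0 of these 3 was called.

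Of 2 tested nuclear body proteins, PML rose with doxorubicin and fell with added formononetin, and SP110 passed in neither comparison, nor did TRIM21. PML, the organiser of PML nuclear bodies, measured 29.7, 30.3 and 32.7 CPM with doxorubicin plus formononetin, 40.02, 42.4 and 35.9 CPM with doxorubicin and 28.7, 23.4 and 28.6 CPM with vehicle. Doxorubicin libraries were above the others, and those with both drugs lay just above vehicle. PML had log2 fold changes of 0.55 ± 0.12 with doxorubicin (edgeR adjusted p = 0.00483) and -0.35 ± 0.12 with added formononetin (adjusted p = 0.045). The fall of PML was lost on leaving out any one of 6 libraries, at an edgeR adjusted p of 0.115 without doxorubicin plus formononetin replicate 1, 0.0744 without doxorubicin plus formononetin replicate 2, 0.113 without doxorubicin replicate 1, 0.147 without doxorubicin replicate 2, 0.0639 without vehicle replicate 1 and 0.0673 without vehicle replicate 3. SP110, a nuclear body protein tied to resistance to intracellular bacteria in mouse, had 8.94, 16.5 and 10.6 CPM with doxorubicin plus formononetin, 11.1, 12.7 and 13.2 CPM with doxorubicin and 9.56, 9.01 and 9.65 CPM with vehicle. Its highest library was replicate 2 of doxorubicin plus formononetin, and the libraries with both drugs overlapped both other groups. SP110 had log2 fold changes of 0.39 ± 0.21 with doxorubicin (edgeR adjusted p = 0.182) and -0.04 ± 0.21 with added formononetin (adjusted p = 0.906), and it passed against vehicle, at an edgeR adjusted p of 0.04 without doxorubicin plus formononetin replicate 2. TRIM21, a cytosolic antibody receptor and ubiquitin ligase, measured 7.73, 12.7 and 6.69 CPM with doxorubicin plus formononetin, 8.54, 9.71 and 10.02 CPM with doxorubicin and 7.82, 8.71 and 8.87 CPM with vehicle. All 3 groups overlapped, with the widest spread among the libraries of both drugs. TRIM21 had log2 fold changes of 0.15 ± 0.23 with doxorubicin (edgeR adjusted p = 0.648) and -0.056 ± 0.23 with added formononetin (adjusted p = 0.878).

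Other effectors, ISG20 left aside, rose with doxorubicin in 6 of 7 tested members, and 4 of 7 fell with added formononetin. IFI44L and IFI44 are related cytosolic proteins best known as blood markers of type I interferon. IFI44L measured 58.3, 61.01 and 60.7 CPM with doxorubicin plus formononetin, 115, 109.8 and 134 CPM with doxorubicin and 40.3, 34.1 and 42.6 CPM with vehicle. The groups were apart with little spread inside each. IFI44L had log2 fold changes of 1.62 ± 0.12 with doxorubicin (edgeR adjusted p = 1.93e-05) and -0.996 ± 0.12 with added formononetin (adjusted p = 2.85e-04). IFI44 had 15.1, 11.01 and 19.99 CPM with doxorubicin plus formononetin, 34.9, 31.7 and 35.8 CPM with doxorubicin and 13.7, 10.3 and 12.2 CPM with vehicle. The libraries with both drugs overlapped those with vehicle. IFI44 had log2 fold changes of 1.499 ± 0.20 with doxorubicin (edgeR adjusted p = 3.20e-04) and -1.15 ± 0.20 with added formononetin (adjusted p = 0.00188). RTP4, a chaperone of taste and opioid receptors that also restricts flaviviruses, measured 22.3, 28.3 and 27.2 CPM with doxorubicin plus formononetin, 45.7, 41.2 and 51.6 CPM with doxorubicin and 19.7, 16.3 and 19.5 CPM with vehicle. The 3 groups were apart. RTP4 had log2 fold changes of 1.32 ± 0.14 with doxorubicin (edgeR adjusted p = 9.86e-05) and -0.83 ± 0.13 with added formononetin (adjusted p = 0.00147). EPSTI1, an interferon-induced protein expressed in macrophages, had 6.51, 6.65 and 6.23 CPM with doxorubicin plus formononetin, 9.37, 8.59 and 12.1 CPM with doxorubicin and 3.97, 3.84 and 3.79 CPM with vehicle. Again the groups did not overlap. EPSTI1 had log2 fold changes of 1.37 ± 0.20 with doxorubicin (edgeR adjusted p = 4.95e-04) and -0.63 ± 0.19 with added formononetin (adjusted p = 0.0301), and its fall was lost at an edgeR adjusted p of 0.0657 without doxorubicin plus formononetin replicate 1, 0.0628 without doxorubicin plus formononetin replicate 3, 0.0598 without doxorubicin replicate 1 and 0.114 without doxorubicin replicate 3.

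The remaining effectors included the least abundant and the most abundant members. ISG20, an exonuclease that degrades RNA, had 0.973, 0 and 0.197 CPM with doxorubicin plus formononetin, 2.76, 3.02 and 4.24 CPM with doxorubicin and 0.481, 0.0601 and 0.112 CPM with vehicle. It was near 0 in most libraries outside doxorubicin hearts, with replicate 1 of doxorubicin plus formononetin the exception. Summed counts were 19 with both drugs, 170 with doxorubicin and 11 with vehicle. The ratio of depth-scaled counts was 15.4 for doxorubicin over vehicle (95% exact interval 8.41 to 31.5) and 8.57 for doxorubicin over both drugs (5.32 to 14.6). For ISG20 too, which passed the filter only where it was high, no p-value is given, and its calls carry no weight. Its intervals also leave out the spread between libraries. Doxorubicin plus formononetin replicate 2, with 0 counts of ISG20 and OASL, had the fewest genes detected, 14766. Without it, the log2 fold change with added formononetin went from -3.08 to -2.48 for ISG20 and from -4.65 to -4.06 for OASL. Without replicate 1 of that group it went to -5.05 and -5.77. IFI6, a small membrane protein that protects cells from apoptosis, measured 164, 169 and 127 CPM with doxorubicin plus formononetin, 149, 152 and 197 CPM with doxorubicin and 108, 87.3 and 117 CPM with vehicle. Its libraries with both drugs overlapped those with doxorubicin and lay above those with vehicle. IFI6 had log2 fold changes of 0.67 ± 0.16 with doxorubicin (edgeR adjusted p = 0.00718) and -0.11 ± 0.16 with added formononetin (adjusted p = 0.615). BST2, the tetherin that holds budding virions at the cell surface, averaged 25.7 ± 3.21 CPM with doxorubicin plus formononetin, 33.5 ± 7.297 CPM with doxorubicin and 19.9 ± 1.57 CPM with vehicle (SD, n = 3 each). BST2 had log2 fold changes of 0.75 ± 0.16 with doxorubicin (edgeR adjusted p = 0.00475) and -0.38 ± 0.16 with added formononetin (adjusted p = 0.0967). IFI35, a cytosolic protein that pairs with NMI, had 10.3, 11.4 and 8.91 CPM with doxorubicin plus formononetin, 9.76, 8.11 and 10.6 CPM with doxorubicin and 9.26, 9.73 and 8.14 CPM with vehicle. All groups overlapped. IFI35 had log2 fold changes of 0.069 ± 0.18 with doxorubicin (edgeR adjusted p = 0.798) and 0.11 ± 0.18 with added formononetin (adjusted p = 0.673). XAF1, an antagonist of the caspase inhibitor XIAP, had 0 counts in every library, which at 3 counts allows a level of up to 0.165 to 0.197 CPM depending on the library. SAMD9 is an antiviral factor that in human cells arrests translation. LOC100519098, described in the deposited count table as SAMD9, matched by its description only and is not among the 35. It had 24.2, 38.6 and 34.7 CPM with doxorubicin plus formononetin, 82.7, 83.6 and 86.8 CPM with doxorubicin and 28.02, 18.7 and 28.2 CPM with vehicle. Doxorubicin libraries were far above all others. It had log2 fold changes of 1.76 ± 0.19 with doxorubicin (edgeR adjusted p = 1.14e-04) and -1.38 ± 0.19 with added formononetin (adjusted p = 5.47e-04).

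**Figure D3:**
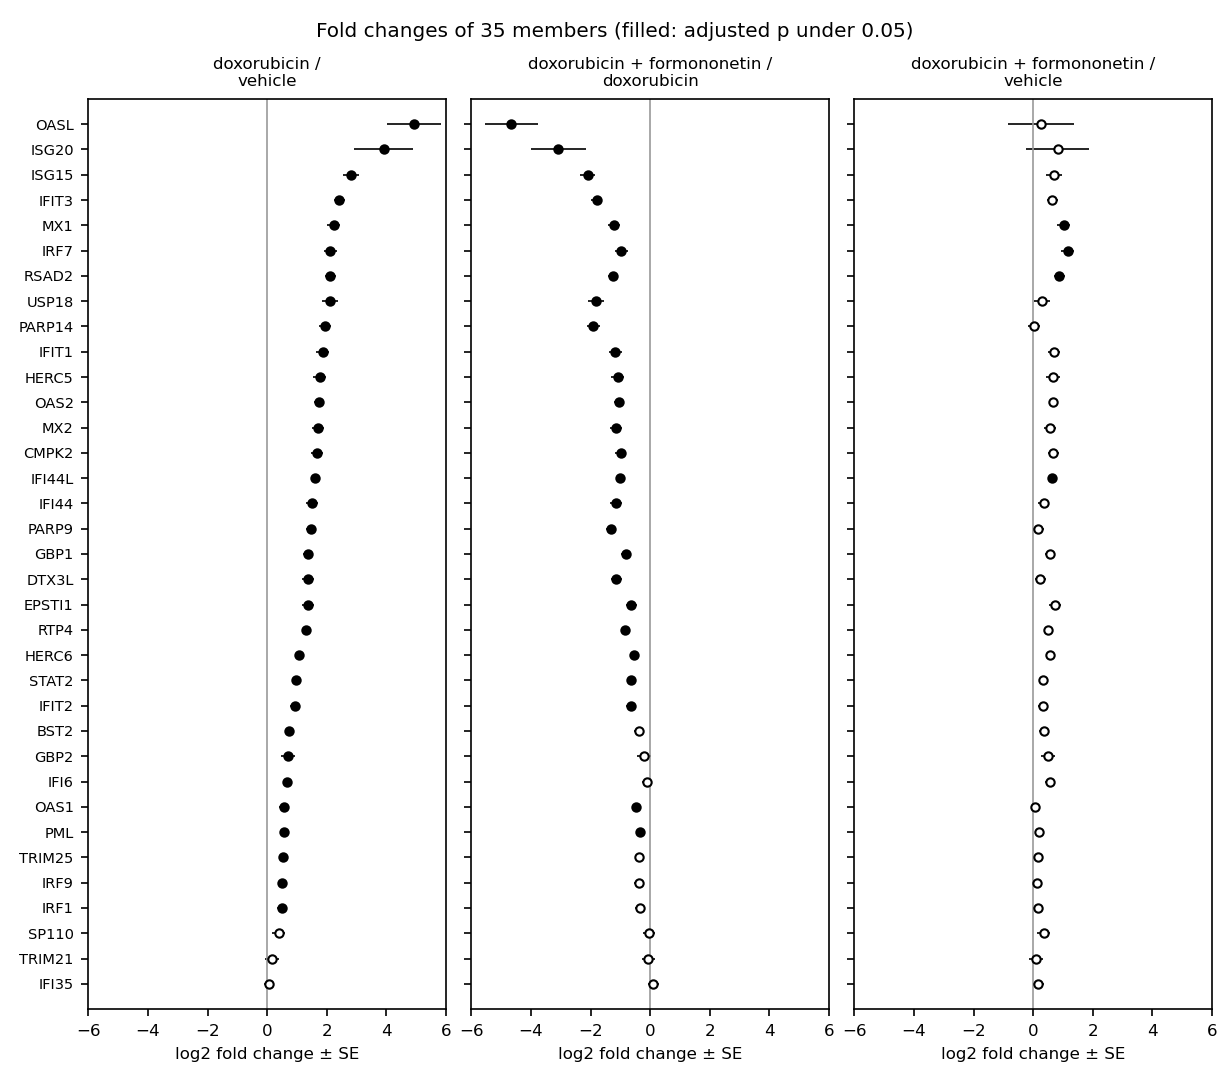
Log2 fold change ± SE of the 35 tested members for doxorubicin over vehicle, doxorubicin plus formononetin over doxorubicin, and doxorubicin plus formononetin over vehicle, with filled circles for an edgeR adjusted p under 0.05. Members run down the page from the largest to the smallest difference with doxorubicin. Filled circles number 32, 26 and 4 in the 3 panels, OASL and ISG20 among them in the first 2 although they passed the low-count filter through the doxorubicin libraries alone, and the comparisons share libraries.

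Hearts given both drugs did not differ from vehicle hearts beyond the threshold in 31 of 35 members. IRF7, MX1, RSAD2 and IFI44L were called higher and 0 members lower, where 0.956% of all genes tested were called higher and 0.808% lower. Their log2 fold changes were 1.15 ± 0.23 (edgeR adjusted p = 0.0335) for IRF7 and 1.03 ± 0.21 (edgeR adjusted p = 0.0381) for MX1. RSAD2 differed by 0.88 ± 0.18 (edgeR adjusted p = 0.033) and IFI44L by 0.62 ± 0.12 (edgeR adjusted p = 0.0239). All 35 fitted differences were positive, with a median of 0.48 and a range of 0.036 to 1.15, against a median of -0.011 for all genes tested. An unadjusted p under 0.05 was found in 18 members, and in 2488 of the 14846 genes tested. All 3 libraries with both drugs lay above all 3 vehicle libraries in 19 members, an arrangement seen in 10.6% of all genes tested. OAS2 (0.68 ± 0.15 (edgeR adjusted p = 0.0505)) and HERC6 (0.55 ± 0.12 (edgeR adjusted p = 0.0515)) stood closest to the threshold without passing. The calls of IRF7, MX1, RSAD2 and IFI44L were each lost when certain single libraries were left out. For IRF7, MX1 and RSAD2 these included doxorubicin replicate 2, which is in neither group compared. Leaving out 1 library also moved the number of all genes called, from 262 to between 64 and 465. Over the 18 alternatives the log2 fold change ran from 0.98 to 1.32 for IRF7 and 0.86 to 1.13 for MX1. It ran from 0.70 to 1.03 for RSAD2 and 0.54 to 0.69 for IFI44L. For IRF7 the edgeR adjusted p was 0.0853 without doxorubicin plus formononetin replicate 1, 0.0553 without doxorubicin plus formononetin replicate 2, 0.0598 without doxorubicin replicate 2, 0.125 without vehicle replicate 1, 0.0707 without vehicle replicate 2 and 0.166 without vehicle replicate 3. For MX1 it was 0.0775 without doxorubicin plus formononetin replicate 1, 0.0678 without doxorubicin plus formononetin replicate 2, 0.0542 without doxorubicin replicate 2, 0.0815 without vehicle replicate 1, 0.135 without vehicle replicate 2 and 0.111 without vehicle replicate 3. For RSAD2 the edgeR adjusted p was 0.0502 without doxorubicin plus formononetin replicate 1, 0.0563 without doxorubicin plus formononetin replicate 2, 0.0641 without doxorubicin replicate 2, 0.094 without vehicle replicate 2 and 0.114 without vehicle replicate 3. For IFI44L it was 0.0694 without doxorubicin plus formononetin replicate 1, 0.0686 without vehicle replicate 1, 0.105 without vehicle replicate 2 and 0.0645 without vehicle replicate 3. The number of called members was 0 without vehicle replicate 2, without vehicle replicate 3 or without doxorubicin plus formononetin replicate 1. It was 6 without doxorubicin plus formononetin replicate 3, 5 without doxorubicin replicate 3, 2 without doxorubicin plus formononetin replicate 2, and 1 without vehicle replicate 1 or doxorubicin replicate 2. A p that misses the threshold does not show that the groups were alike.

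The order of the group means was the same in most members. Doxorubicin was highest, both drugs intermediate and vehicle lowest in 34 of 35 members, an order that 22.2% of all genes tested showed. IFI35 was the exception, with both drugs above doxorubicin. OASL and ISG20 are counted among the 34. They passed the low-count filter through the doxorubicin libraries alone, so doxorubicin had to be highest in them. The place of the libraries with both drugs between the other groups varied between members: their difference from vehicle was 1.15 for IRF7 and 1.03 for MX1 on the log2 scale, and 0.036 for PARP14 and 0.079 for OAS1. Differences between members in this respect were not tested.

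Single libraries stood out across the members. Doxorubicin replicate 3 was the highest of the 9 libraries in 28 of 35 members, against 17.1% of all genes tested, and the highest of its group in 31, against 38.7%. OASL and ISG20, which passed the low-count filter through the doxorubicin libraries alone, are in both counts. Vehicle replicate 2 was the lowest of the 9 in 25 members, against 9.67% of all genes tested, and the lowest of its group in 29, against 34.6%. Doxorubicin plus formononetin replicate 2 was the highest of its group in 21 members, against 37.3% of all genes. The median log2 deviation of the members from the vehicle mean was 0.38, 0.57 and 0.53 in the libraries with both drugs, 1.36, 1.26 and 1.61 in the doxorubicin libraries and 0.10, -0.20 and 0.091 in the vehicle libraries. Macrophage and monocyte markers summed to 338 CPM in doxorubicin replicate 3 and to 358 and 347 CPM in replicates 1 and 2. Lymphocyte and natural killer markers summed to 74.2 CPM in that library and to 98.3 and 85.4 CPM in its companions. The macrophage markers AIF1, FCGR3A and LYZ were highest in that library, where AIF1 had 16.5 CPM against 10.7 and 12.9 CPM, FCGR3A 43.4 CPM against 38.7 and 38.97 CPM, and LYZ 8.92 CPM against 3.25 and 6.52 CPM in replicates 1 and 2. Other markers of the same list went the other way: CD68, CD163, CSF1R, MRC1, CD14 and C1QB were lowest of the doxorubicin group in that library. C1QA and C1QC lay between its companions, and MARCO had 0 counts in all doxorubicin libraries. Counting OASL and ISG20, without doxorubicin replicate 3, 29 members rose with doxorubicin and 22 fell with added formononetin. With that library and doxorubicin plus formononetin replicate 2 both left out, a setting chosen after seeing the data, 30 rose and 24 fell, with medians of 1.29 and -0.81. The median coefficient of variation of the members was 15.2% with both drugs, 15.3% with doxorubicin and 15.1% with vehicle, against 19.0%, 13.9% and 10.9% for all genes tested.

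Several members lie beside each other in the pig genome (Sscrofa11.1), and 17 of the 36 form 9 neighbouring pairs. IFIT2, IFIT3 and IFIT1 follow one another on the plus strand of chromosome 14, IFIT2 at chr14:101193421-101204292, IFIT3 at chr14:101214730-101225169 and IFIT1 at chr14:101237403-101249486. Although adjacent, they differed in size of response, with log2 fold changes of 0.95, 2.42 and 1.86 with doxorubicin. OAS2 (chr14:38827667-38847697) and OAS1 (chr14:38851083-38867427) lie 3385 bases apart on the minus strand and differed by 1.73 and 0.55 with doxorubicin. RSAD2 (chr3:128880853-128897809) and CMPK2 (chr3:128903395-128917873) run away from each other with 5585 bases between them, and gave 2.12 and 1.67. MX2 (chr13:204798633-204821612) and MX1 (chr13:204843049-204868927) gave 1.72 and 2.24. GBP2 and GBP1, 16969 bases apart on chromosome 4, gave 0.70 and 1.38. IFI44 and IFI44L on chromosome 6 gave 1.499 and 1.62, and HERC5 and HERC6 on chromosome 8 gave 1.76 and 1.08. ISG15 (chr6:63363201-63364211) and IRF7 (chr2:372235-375572) have no other member beside them. Differences between neighbours were not tested.

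Levels of different genes can be compared only per length, for which the deposited gene length was used. By CPM per kilobase, IFI6 and ISG15 were the most abundant members in doxorubicin hearts. IFI6 had 198 ± 29.7 CPM per kilobase with both drugs, 214 ± 35.02 with doxorubicin and 134 ± 19.6 with vehicle (SD, n = 3 each). ISG15 had 32.4 ± 4.85 CPM per kilobase with both drugs, 139 ± 62.8 with doxorubicin and 19.98 ± 2.34 with vehicle. BST2 and IFIT1 came next in doxorubicin hearts, at 62.7 ± 13.7 and 52.5 ± 8.39 CPM per kilobase. OASL and ISG20 were lowest, at 2.87 ± 1.32 and 1.43 ± 0.34 CPM per kilobase. The members as a whole took 0.0906%, 0.114% and 0.0933% of counts in the libraries with both drugs, 0.181%, 0.172% and 0.211% with doxorubicin and 0.0770%, 0.0632% and 0.0818% with vehicle.

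Interferon genes themselves were scarce. Taken by the start of the symbol, the table holds 34 interferon genes, of which 5 had 0 counts everywhere, IFNB1 among them. No interferon lambda gene was among the 34, and interferon genes under other symbols were not looked for. Their summed level was 4.02, 5.505 and 4.13 CPM with both drugs, 3.36, 2.37 and 3.87 CPM with doxorubicin and 4.39, 7.33 and 5.41 CPM with vehicle. All 3 doxorubicin libraries lay below the other 6, by a margin of few counts. Raw counts were 66, 96 and 63 with both drugs, 61, 40 and 63 with doxorubicin and 73, 122 and 97 with vehicle. In doxorubicin plus formononetin replicate 2 only 4 of the 34 genes had a count, and IFN-OMEGA-2 gave 49 of the 96. The difference in the sum was not tested. Only 3 of the genes passed the filter (IFN-DELTA-1, IFN-OMEGA-2 and IFN-OMEGA-6), and 0 of them was called by edgeR in any comparison. Their log2 fold changes with doxorubicin against vehicle were -1.03 ± 0.96 (edgeR adjusted p = 0.444), -0.65 ± 0.60 (edgeR adjusted p = 0.44) and -2.15 ± 1.05 (edgeR adjusted p = 0.139) in that order. IFNG, the type II interferon made by T and natural killer cells, had 5, 0 and 1 counts with both drugs, 8, 5 and 7 with doxorubicin and 0, 0 and 3 with vehicle. IFNG was too low for the test, and no doxorubicin library had fewer IFNG counts than any other library.

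**Figure D4:**
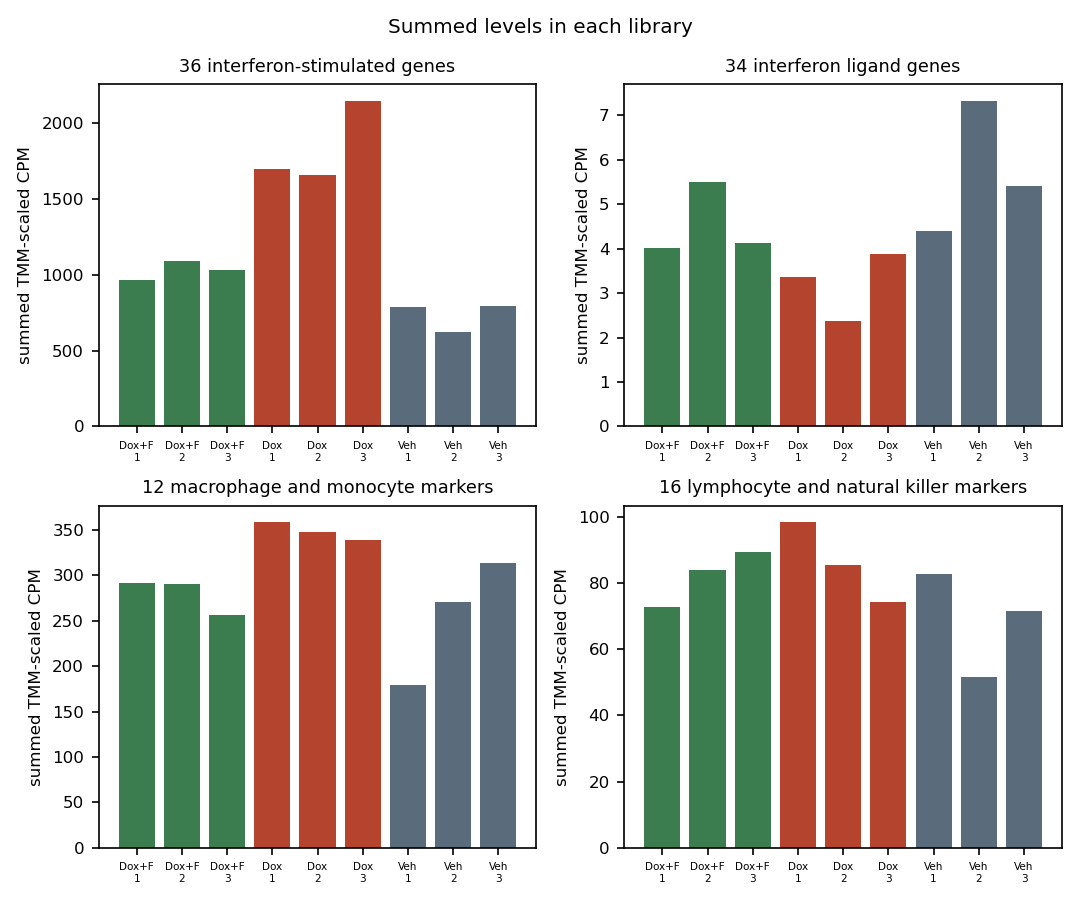
Summed TMM-scaled CPM in each library (bars, from 0) of the 36 interferon-stimulated genes, 34 interferon ligand genes, 12 macrophage and monocyte markers and 16 lymphocyte and natural killer markers, for doxorubicin plus formononetin (Dox+F), doxorubicin (Dox) and vehicle (Veh) replicates 1 to 3. The members reach 1656 to 2147 CPM with doxorubicin and 623 to 791 CPM with vehicle, while the ligands reach 2.37 to 3.87 CPM with doxorubicin and 4.39 to 7.33 CPM with vehicle. The ligand bars rest on 40 to 122 counts per library.

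Of 8 tested receptors and kinases, IFNGR1 rose and the kinases JAK1 and TYK2 fell with doxorubicin against vehicle, where 16.3% of all genes were called higher and 17.0% lower. With added formononetin IFNGR1, IFNAR1 and IFNAR2 fell and JAK1 rose, where 13.5% of all genes were called lower and 14.7% higher. IFNGR1, the ligand-binding chain of the type II receptor, measured 46.2, 44.96 and 55.2 CPM with doxorubicin plus formononetin, 95.6, 91.3 and 122 CPM with doxorubicin and 50.7, 37.2 and 48.8 CPM with vehicle. Its doxorubicin libraries were all above the other 6. IFNGR1 had log2 fold changes of 1.17 ± 0.15 with doxorubicin (edgeR adjusted p = 2.95e-04) and -1.08 ± 0.15 with added formononetin (adjusted p = 6.97e-04). TYK2 averaged 42.5 ± 1.49 CPM with doxorubicin plus formononetin, 37.1 ± 1.63 CPM with doxorubicin and 52.1 ± 1.21 CPM with vehicle (SD, n = 3 each), with log2 fold changes of -0.49 ± 0.093 with doxorubicin (edgeR adjusted p = 0.0023) and 0.20 ± 0.093 with added formononetin (adjusted p = 0.138). JAK1 averaged 149 ± 10.6 CPM with doxorubicin plus formononetin, 117 ± 6.81 CPM with doxorubicin and 142 ± 4.41 CPM with vehicle (SD, n = 3 each). JAK1 had log2 fold changes of -0.28 ± 0.10 with doxorubicin (edgeR adjusted p = 0.0431) and 0.35 ± 0.10 with added formononetin (adjusted p = 0.0208). The type I receptor chain IFNAR1 had log2 fold changes of 0.44 ± 0.16 with doxorubicin (edgeR adjusted p = 0.0616) and -0.66 ± 0.17 with added formononetin (adjusted p = 0.0133). Its partner chain IFNAR2 had log2 fold changes of 0.54 ± 0.21 with doxorubicin (edgeR adjusted p = 0.0681) and -0.80 ± 0.21 with added formononetin (adjusted p = 0.0161).

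Among STAT and other IRF genes, STAT3 and IRF2 rose and STAT6 fell with doxorubicin against vehicle, and STAT3 fell and STAT5A, STAT5B and STAT6 rose with added formononetin. Of all genes tested, 16.3% were called higher and 17.0% lower with doxorubicin, and 14.7% higher and 13.5% lower with added formononetin. STAT6, the mediator of interleukin-4 signals, averaged 32.6 ± 3.41 CPM with doxorubicin plus formononetin, 24.1 ± 4.39 CPM with doxorubicin and 48.2 ± 3.61 CPM with vehicle (SD, n = 3 each). STAT6 had log2 fold changes of -0.998 ± 0.14 with doxorubicin (edgeR adjusted p = 5.17e-04) and 0.43 ± 0.14 with added formononetin (adjusted p = 0.0444). STAT3, which answers to the interleukin-6 family, had log2 fold changes of 0.54 ± 0.12 with doxorubicin (edgeR adjusted p = 0.00476) and -0.70 ± 0.12 with added formononetin (adjusted p = 0.00164). The prolactin- and cytokine-responsive factor STAT5A had a log2 fold change of 0.67 ± 0.21 (edgeR adjusted p = 0.0315) with added formononetin. Doxorubicin plus formononetin replicate 2 stood out in STAT5A, at 30.2 CPM against 17.5 and 17.4 CPM in replicates 1 and 3. The same library had 89.4 CPM of STAT5B against 59.2 and 62.3 CPM.

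Of 11 inhibitors of the pathway, PTPN11 and PIAS2 rose and PIAS4 fell with doxorubicin, and with added formononetin PTPN11, PIAS2 and SOCS3 fell and PIAS3 rose. Of all genes tested, 16.3% were called higher and 17.0% lower with doxorubicin, and 14.7% higher and 13.5% lower with added formononetin. PTPN11, the phosphatase SHP2, had log2 fold changes of 0.81 ± 0.11 with doxorubicin (edgeR adjusted p = 3.04e-04) and -0.73 ± 0.11 with added formononetin (adjusted p = 8.09e-04). PIAS2, a SUMO ligase that binds STATs, had log2 fold changes of 0.58 ± 0.14 with doxorubicin (edgeR adjusted p = 0.00974) and -0.57 ± 0.14 with added formononetin (adjusted p = 0.0137). Its relatives PIAS4 and PIAS3 had log2 fold changes of -0.42 ± 0.15 (edgeR adjusted p = 0.0427) with doxorubicin for PIAS4 and of 0.53 ± 0.17 (edgeR adjusted p = 0.0404) with added formononetin for PIAS3. Of the partners of ISG15, its conjugating enzyme UBE2L6 had log2 fold changes of 0.95 ± 0.19 with doxorubicin (edgeR adjusted p = 0.0034) and -0.60 ± 0.19 with added formononetin (adjusted p = 0.0357). UBE2E2, an alternative conjugating enzyme, had a log2 fold change of 0.45 ± 0.13 (edgeR adjusted p = 0.0182) with doxorubicin. The activating enzyme gene UBA7 had summed counts of 0 with both drugs, 1 with doxorubicin and 3 with vehicle, and was not tested. PDE12, which degrades the oligoadenylate messenger, had log2 fold changes of 0.70 ± 0.16 with doxorubicin (edgeR adjusted p = 0.00577) and -0.48 ± 0.15 with added formononetin (adjusted p = 0.0381). ABCE1, a ribosome recycling factor, had log2 fold changes of 0.57 ± 0.16 with doxorubicin (edgeR adjusted p = 0.0154) and -0.50 ± 0.16 with added formononetin (adjusted p = 0.0331).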

How the data were processed

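RNA was measured in 9 heart samples of miniature pigs, 3 in each of 3 groups, assigned from the treatment in the labels. Total RNA was purified with an RNeasy kit and messenger RNA libraries were prepared with a SMARTER kit, per the labels' protocols. The authors deposited raw counts per gene, whole numbers that sum to 16291952 to 17549359 per library, and a gene length. Which programs aligned and counted the reads, and how they treated strand and shared reads, was not given in the sources used here. Symbols and positions of all 36 matched members equalled those of RefSeq for Sscrofa11.1. No promoter or protein sequences were used here.

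Counts were analysed in R 4.3.3 with edgeR 4.0.16: filterByExpr (minimum count 10), TMM scaling, 1 mean per group over all 9 libraries, and the quasi-likelihood F-test (glmQLFit, glmQLFTest), with Benjamini-Hochberg adjustment over 14846 genes. Each SE was taken as the size of the log2 fold change over the square root of its F statistic. Deviations from the vehicle mean use log2 CPM with a prior count of 2. DESeq2 1.42.0 and limma 3.58.1 served as alternatives. Ratios of summed counts carry 95% exact binomial intervals, which leave out the spread between libraries, and a floor is 3 counts. No 2 libraries of a group agreed within sampling noise (chi-square per degree of freedom 10.0 to 54.0).

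Members and lists were chosen with earlier results of these data known. All 39 members are named. Values in every library are given for the member of each role class with the largest difference with doxorubicin and that with the highest mean CPM, for each member called with added formononetin, and for each member not called with doxorubicin. Of each pathway list, up to 3 called genes per comparison with the smallest p are given with values. The text also names other called genes to complete a count, and IFNB1, IFNG, UBA7, CD68, CSF1R, MYH7 and the loci LOC100151816 and LOC100519098, which were chosen after their values were seen. Some results of the pathway lists are not reported here.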

Additional observations from a re-analysis of the deposited data

How the results depend on the processing

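Each of the 35 members was refitted in 3 comparisons under 18 alternatives: DESeq2, limma-voom, RLE and upper-quartile factors, mitochondrially encoded genes left out, no low-count filter, only the 2 groups compared, each of the 9 libraries left out, the replicate number as a block, and, chosen after seeing the data, doxorubicin plus formononetin replicate 2 and doxorubicin replicate 3 left out together. With doxorubicin against vehicle, 27 to 33 members were called higher and 0 lower under all of them. With doxorubicin plus formononetin against doxorubicin, 22 to 26 were called lower and 0 higher. All these counts include OASL and ISG20, which passed the low-count filter through the doxorubicin libraries alone. Of the other calls lost, those not given above for a single library left out were GBP2 against vehicle under the replicate block (edgeR adjusted p = 0.0529), and IRF1 (0.0635) and GBP2 (0.102) with the 2 libraries left out together. Against doxorubicin, edgeR no longer called PML under the upper-quartile factors (0.0639), no filter (0.0905), 2 groups only (0.0755) and the replicate block (0.0819). EPSTI1 was lost without the filter (0.0804), with 2 groups only (0.0671), under the replicate block (0.0616) and without the 2 libraries (0.0734), the last of which also lost IFIT2 (0.0810), OAS1 (0.142) and HERC6 (0.0556). Calls were also gained: SP110 against vehicle with 2 groups only (edgeR adjusted p = 0.0344). Against doxorubicin, IRF9 (0.0327) and TRIM25 (0.0220) passed with the 2 libraries left out together.

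The comparison of doxorubicin plus formononetin with vehicle depended most on the setting. Against 4 members and 262 genes called, DESeq2 called 13 and 748, no low-count filter 11 and 488, limma-voom 2 members, the 2 groups alone 0 members (33 tested) and 118 genes, and the 2 libraries left out together 8 and 436. Leaving out 1 library gave 0 to 6 members and 64 to 465 genes. The cause of these differences was not tested. All members differed in the positive direction there except in the cases below.

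Replicate numbers are shared between groups, but libraries with the same number did not deviate together over all genes. Their correlations ran from -0.204 to 0.0271, and those of libraries with different numbers from -0.114 to 0.139. Whether a number stands for a shared batch is not given in the labels. With the replicate block, 31 members and 4327 genes were called with doxorubicin against vehicle, 24 and 3486 with both drugs against doxorubicin, and 1 and 124 with both drugs against vehicle.

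Signs turned only in differences that were not called. Over the libraries left out 1 at a time, the log2 fold change of IFI35 with doxorubicin against vehicle ran from -0.015 to 0.17, and was -0.016 without the 2 libraries together. For both drugs against doxorubicin, SP110 ran from -0.34 to 0.13, TRIM21 from -0.38 to 0.12 and IFI6 from -0.19 to 0.026. For both drugs against vehicle, IRF9 ran from -0.019 to 0.22, OAS1 from -0.061 to 0.16, OASL from -0.84 to 1.23, PARP14 from -0.16 to 0.18, TRIM21 from -0.23 to 0.28 and ISG20 from -1.15 to 2.09. Without the 2 libraries together, IRF9 was at -0.019 and TRIM21 at -0.23 against vehicle, and under limma-voom ISG20 was at -0.026.

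Depth limited OASL, ISG20, XAF1 and the interferon genes, where a few counts decide a value. With 3 libraries a group, small differences can go undetected.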
